A study of Mus musculus with 27 samples.

Results

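The 10 genes Pax5, Ebf1, Bach2, Spib, Spi1, Pou2af1, Ets1, Ikzf1, Ikzf3 and Irf8 encode transcription factors, or in the case of Pou2af1 a coactivator, that establish or keep B cell identity in the mouse. They were taken by name from the 35604 genes of an RNA-seq table of mouse splenic B cells, and all 10 were listed in it and passed the filter on low values that left 12147 genes for testing. Splenic primary B cells of wild-type mice, whose age is not given in the sources used here, were sequenced either naive, with no treatment at 0 h, or after culture for 6 h or 24 h. Every cultured group received the anti-CD40 antibody HM40-3 at 1 μg/mL, which stands in for the CD40 ligand of a helper T cell. The cytokine added was none, IL-4 (12.5 ng/mL), IL-21 (at a dose of 50 ng/mL) or both, so that 4 culture conditions at each of 2 times and the naive cells gave 9 groups with 3 replicates each, 27 libraries of poly(A) RNA in all. There was no group cultured without anti-CD40, so the effect of culture and that of CD40 ligation cannot be told apart. The labels do not say whether replicates came from separate mice, and p-values then reflect nothing beyond how these libraries vary, which may be technical. The comparisons ask what culture with anti-CD40, and the IL-4 or IL-21 added to it, did to the levels of these factors. They also ask whether one cytokine changed the effect of the other.

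B cell fate is built by a network of factors that act on one another. SPI1 (PU.1), Ikaros (IKZF1) and EBF1 act early in the lineage, EBF1 switches on Pax5, and PAX5 then activates B cell genes such as Cd79a and represses genes of other lineages. In mature B cells, BACH2 represses Prdm1, the gene for the plasma cell regulator BLIMP1, and so holds back plasma cell differentiation. SPIB and SPI1 bind much the same ETS sites and act partly redundantly, often with IRF8 or IRF4. POU2AF1 (OBF1) is a coactivator that joins OCT1 and OCT2 on octamer sites and is needed for germinal centers. ETS1 and Aiolos (IKZF3) are further regulators of B cell activation and plasma cell formation. During differentiation to plasma cells most of this network is turned down, and IL-21 and IL-4 are the helper T cell cytokines under which germinal center and plasma cell fates are decided.

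Promoter windows from RefSeq (GRCm38.p6, 250 bases before and 50 bases after a transcription start, both strands searched) were in the reference table for 7 of the 10 genes, as 10 windows. IL-21 signals through STAT proteins, whose usual site is TTCNNNGAA. This motif was in 8.3% of all 32851 windows of the table, and in 3 of the 10 windows of these genes, those of Bach2, Irf8 and Ikzf1. The Bach2 window, the Irf8 window with its 2 matches and the Pax5 window, in which no searched motif was found, are shown as windows with and without a match. Among genes with a match, Bach2 was called in all 4 comparisons that add IL-21, Irf8 in those at 24 h and Ikzf1 in none. Among genes whose windows held none, Pou2af1 was called in 3 of them, and Spib, Ebf1 and Pax5 in at least 1. Whether a match goes with a call was not tested. Matches are in capitals. The Bach2 window lies at chr4:32417185-32417484 on the plus strand, at a RefSeq start inside the gene as GENCODE draws it. The Irf8 window is chr8:120736108-120736407 on the plus strand and the Pax5 window is chr4:44710645-44710944 on the minus strand.
Bach2: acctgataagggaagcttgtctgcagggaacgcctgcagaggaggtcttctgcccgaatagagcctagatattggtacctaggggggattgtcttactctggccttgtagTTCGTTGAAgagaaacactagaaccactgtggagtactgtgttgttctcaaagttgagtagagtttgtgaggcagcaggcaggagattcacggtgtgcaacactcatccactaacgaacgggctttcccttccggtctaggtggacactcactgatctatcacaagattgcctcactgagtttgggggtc
Irf8: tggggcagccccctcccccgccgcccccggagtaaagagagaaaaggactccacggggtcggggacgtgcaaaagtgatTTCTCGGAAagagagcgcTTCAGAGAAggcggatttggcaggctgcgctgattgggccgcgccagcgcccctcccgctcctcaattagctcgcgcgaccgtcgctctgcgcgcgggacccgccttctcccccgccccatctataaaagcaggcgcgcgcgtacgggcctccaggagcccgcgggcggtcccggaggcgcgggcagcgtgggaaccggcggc
Pax5: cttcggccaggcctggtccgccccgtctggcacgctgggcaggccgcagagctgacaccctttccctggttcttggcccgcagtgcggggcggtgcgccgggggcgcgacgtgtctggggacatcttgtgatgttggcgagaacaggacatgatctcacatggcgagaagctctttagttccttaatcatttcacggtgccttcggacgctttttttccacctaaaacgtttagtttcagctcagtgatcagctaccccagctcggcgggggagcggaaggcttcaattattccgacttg
Counted from the start site, the Bach2 match began at position -140 and the Irf8 matches at positions -171 and -153. The STAT6 type site with a 4-base spacer, TTCNNNNGAA, was in 6.95% of all windows and in no window of these genes, and so was the AP-1 site TGANTCA (7.81%), the octamer ATGCAAAT (1.74%), the PU.1 type site GAGGAAGT (3.2%) and the EBF site TCCCNNGGGA (0.904%). The interferon response element GAAANNGAAA was in 3.44% of all windows and in 1 window of Ebf1. A match is a description of these letters and was not tested as a binding site.

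All values are TPM, the transcript abundance unit scaled to a fixed library total, an estimate of abundance per transcript length so that a level can be set beside that of another gene but shows only its share of the transcript pool. In bulk RNA, fewer cells expressing a gene and less of its RNA per cell cannot be told apart. The listed genes held 766384 to 825365 TPM per library, and read depth is unknown because no counts were in the table. The B cell markers Cd79a, Cd79b, Ms4a1 and Cd22 were above 0 in all 27 libraries, with medians of 347 TPM for Cd79a, 564 TPM for Cd79b, 360 TPM for Ms4a1 and 58.4 TPM for Cd22. Neutrophil markers summed to at most 0.588 TPM and NK cell markers to at most 2.34 TPM. T cell markers summed to 5.58 to 30.7 TPM, with Lck the highest of them (at most 30.6 TPM), and Cd3e stayed at or below 1.51 TPM. Dendritic cell markers summed to 1.75 to 10.6 TPM, with Zbtb46 at up to 10.1 TPM and the other 4 at up to 3.60 TPM each. Macrophage and monocyte markers, mainly C1qa and Lyz2, were at 55.5 to 78.7 TPM in the naive libraries against 1.29 to 10.3 TPM in the cultured ones, and erythroid and platelet markers at 697 to 1312 TPM against 7.04 to 155.5 TPM. Macrophages express Spi1 and Irf8, and the part of these cells in the naive values of both genes was not tested.

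A library that stood apart was replicate 1 of anti-CD40 and IL-4 at 24 h. In it 9 of the 10 factors, all but Ets1, were 2.48-fold (Ebf1 and Ikzf3) to 3.53-fold (Pax5) above the mean of replicates 2 and 3. The same library lay above both other replicates for 67.2% of all tested genes, and its mitochondrial transcripts made up 7.89% of listed TPM against 11.6% and 11%. Replicate 1 of the naive group was the highest of its group for all 10 factors and had 5.50% mitochondrial transcripts against 12.7% and 13.5%. Each of these 2 libraries had the lowest mitochondrial share of its own group, though 6 libraries of other groups had 6.56% to 7.68%, below the first of them. Replicate 3 of anti-CD40 at 24 h was likewise the highest of its group for all 10 factors. Replicate 3 of anti-CD40 at 6 h was the highest of its group for 9 of them, and so was replicate 2 of anti-CD40 and IL-21 at 24 h, which had 6.56% mitochondrial transcripts, the lowest share of its group. Replicate 1 of naive and replicate 1 of anti-CD40 and IL-4 at 24 h were left out together as 1 alternative, called here the fit without both replicates 1. Both were the highest of their group for 9 or all 10 factors, so leaving them out lowers the means of their groups by the choice itself. Larger changes and smaller p-values in that fit are therefore not a further test of these factors. Replicate 3 of anti-CD40 at 24 h, also highest for all 10, was kept in it.

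**Figure D1:**
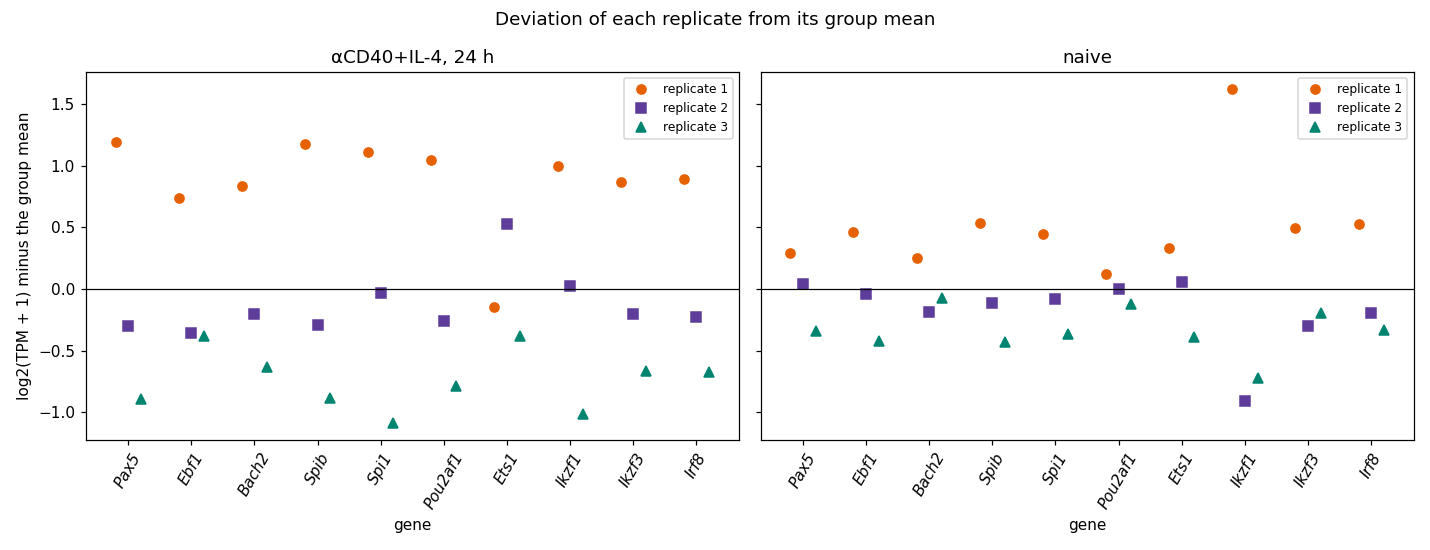
Each point is 1 library's log2(TPM + 1) minus the mean of its group of 3 (y axis), for each of the 10 genes (x axis), in the anti-CD40 and IL-4 group at 24 h (left) and the naive group (right). Replicate 1 (circles) is the highest library for 9 of 10 genes on the left and for 10 of 10 on the right.

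Pax5, the factor that commits cells to the B lineage and keeps them there, was at 148, 124 and 95.1 TPM in the 3 naive libraries. At 6 h it was at 46.1, 34.8 and 55.1 TPM with anti-CD40 alone, 41.5, 37.4 and 50.9 TPM with IL-4, 18.2, 11.8 and 21.1 TPM with IL-21 and 22.1, 22.8 and 15 TPM with both cytokines. At 24 h the same conditions gave 52.3, 47 and 82.1 TPM, 55.6, 19.2 and 12.3 TPM, 48.5, 68.3 and 30.7 TPM and 37.2, 38.1 and 31.5 TPM. Every cultured library was below every naive library, and at 6 h every library with IL-21 was below every library without it. Pax5 was lower with anti-CD40 alone at 6 h than in naive cells (log2 change -1.41 ± 0.38, adjusted p = 0.00602, with the standard error after ±, from limma on log2(TPM + 1) and adjusted over all tested genes). The change was -1.27, adjusted p = 0.003 in the fit without both replicates 1. At 24 h the difference from naive cells was -1.02 ± 0.38, adjusted p = 0.0478, and this call was lost on leaving out 5 of 6 libraries in turn (adjusted p from 0.0526 to 0.144, kept without replicate 3 of anti-CD40 at 24 h). It was also lost with a pseudocount of 0.1 (0.0549), with no filter (0.0984) and with no variance trend (0.0518). IL-21 lowered Pax5 further at 6 h (-1.37 ± 0.38, adjusted p = 0.0178), a call lost on leaving out replicate 1 or 3 of anti-CD40 at 6 h (adjusted p = 0.0601 and 0.0796) or replicate 2 of anti-CD40 and IL-21 at 6 h (adjusted p = 0.104). With IL-4 present, the change with IL-21 at 6 h was -1.09 ± 0.38, adjusted p = 0.18, with no overlap between the groups, and it missed the threshold. By 24 h the change with IL-21 was -0.32 ± 0.38 with anti-CD40 alone and 0.56 ± 0.38 with IL-4, and neither passed. In the fit without both replicates 1 the change with IL-4 present was 1.15, adjusted p = 0.0046, which passed. Between 6 h and 24 h with anti-CD40 and IL-21, Pax5 rose by 1.44 ± 0.38, adjusted p = 0.00466. Ordered by mean, naive cells (122.3 TPM) stood above all other groups, and each of the other 7 neighbouring pairs down to IL-21 at 6 h (17.0 TPM) overlapped.

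Ebf1, which acts upstream of and together with PAX5, was lower in abundance. Its naive values were 25.7, 17.8 and 13.5 TPM. With anti-CD40 alone it was at 2.58, 2.59 and 4.04 TPM at 6 h and at 13.9, 13.2 and 19.5 TPM at 24 h, a dip and a return to values that overlap those of naive cells. With IL-4 it was at 4.62, 2.84 and 2.65 TPM at 6 h and 8.63, 3.53 and 3.44 TPM at 24 h. With IL-21 it was at 8.21, 5.47 and 7.74 TPM and then 18.8, 26.3 and 17.8 TPM, and with both cytokines at 7.63, 3.56 and 5.72 TPM and then 9.6, 11 and 14 TPM. The 6 h libraries with IL-21 and no IL-4 all lay above those with anti-CD40 alone, those with both cytokines overlapped them, and all 6 h libraries lay below the lowest naive library. The fall at 6 h with anti-CD40 was -2.27 ± 0.31, adjusted p = 4.47e-06, or -2.04, adjusted p = 6.77e-06 in the fit without both replicates 1, and the rise from 6 h to 24 h was 2.02 ± 0.31, adjusted p = 5.33e-05. Neither of these calls was lost under any alternative tried. IL-21 raised Ebf1 at 6 h (1.00 ± 0.31, adjusted p = 0.0347), a call lost on leaving out replicate 1 or 2 of anti-CD40 at 6 h (adjusted p = 0.129 and 0.115) or replicate 1 or 3 of anti-CD40 and IL-21 at 6 h (adjusted p = 0.111 and 0.108). Between 6 h and 24 h Ebf1 also rose with anti-CD40 and IL-21 (1.43 ± 0.31, adjusted p = 0.000909) and with both cytokines (0.95 ± 0.31, adjusted p = 0.0225), the latter lost on leaving out replicate 2 of both cytokines at 6 h (adjusted p = 0.139) or replicate 3 of both cytokines at 24 h (adjusted p = 0.0961).

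Bach2, the repressor that holds back the plasma cell programme, was higher with IL-21 at both times, with and without IL-4. Naive cells held 21.3, 15.4 and 16.7 TPM. Without IL-21, the 6 h values were 7.96, 7.53 and 11.2 TPM with anti-CD40 alone and 5.82, 6.89 and 7.18 TPM with IL-4, and the 24 h values were 10.2, 11.1 and 17 TPM and 7.71, 3.25 and 2.16 TPM. With IL-21, the 6 h values were 22.7, 19.6 and 29.3 TPM and, with IL-4 added, 23.9, 26 and 25.7 TPM, and the 24 h values were 41.8, 59.2 and 31.5 TPM and 32, 32.3 and 37.4 TPM. At both times every library with IL-21 was above every library without it. IL-21 raised Bach2 in all 4 settings tested: by 1.33 ± 0.28, adjusted p = 0.00266 at 6 h and by 1.70 ± 0.28, adjusted p = 0.000127 at 24 h beside anti-CD40 alone. Beside anti-CD40 and IL-4 the rise was 1.78 ± 0.28, adjusted p = 0.000357 at 6 h and 2.83 ± 0.28, adjusted p = 1.83e-07 at 24 h. None of these 4 calls was lost under any alternative tried, and Bach2 was the only one of the 10 factors called in all 4. The 24 h rise with IL-4 present was 3.25, adjusted p = 4.79e-09 in the fit without both replicates 1. Bach2 was lower with anti-CD40 alone at 6 h than in naive cells (-0.93 ± 0.28, adjusted p = 0.0151). Bach2 lost this call on leaving out replicate 1 of naive (adjusted p = 0.0615) or replicate 1 or 2 of anti-CD40 at 6 h (adjusted p = 0.0532 and 0.0633). From 6 h to 24 h with anti-CD40 and IL-21 it rose by 0.83 ± 0.28, adjusted p = 0.026, which was lost on leaving out replicate 1 or 2 of anti-CD40 and IL-21 at 6 h (adjusted p = 0.063 and 0.108) or replicate 1 or 2 of anti-CD40 and IL-21 at 24 h (adjusted p = 0.0556 and 0.156). In the fit to the compared groups only that rise had an adjusted p of 0.0578.

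**Figure D2:**
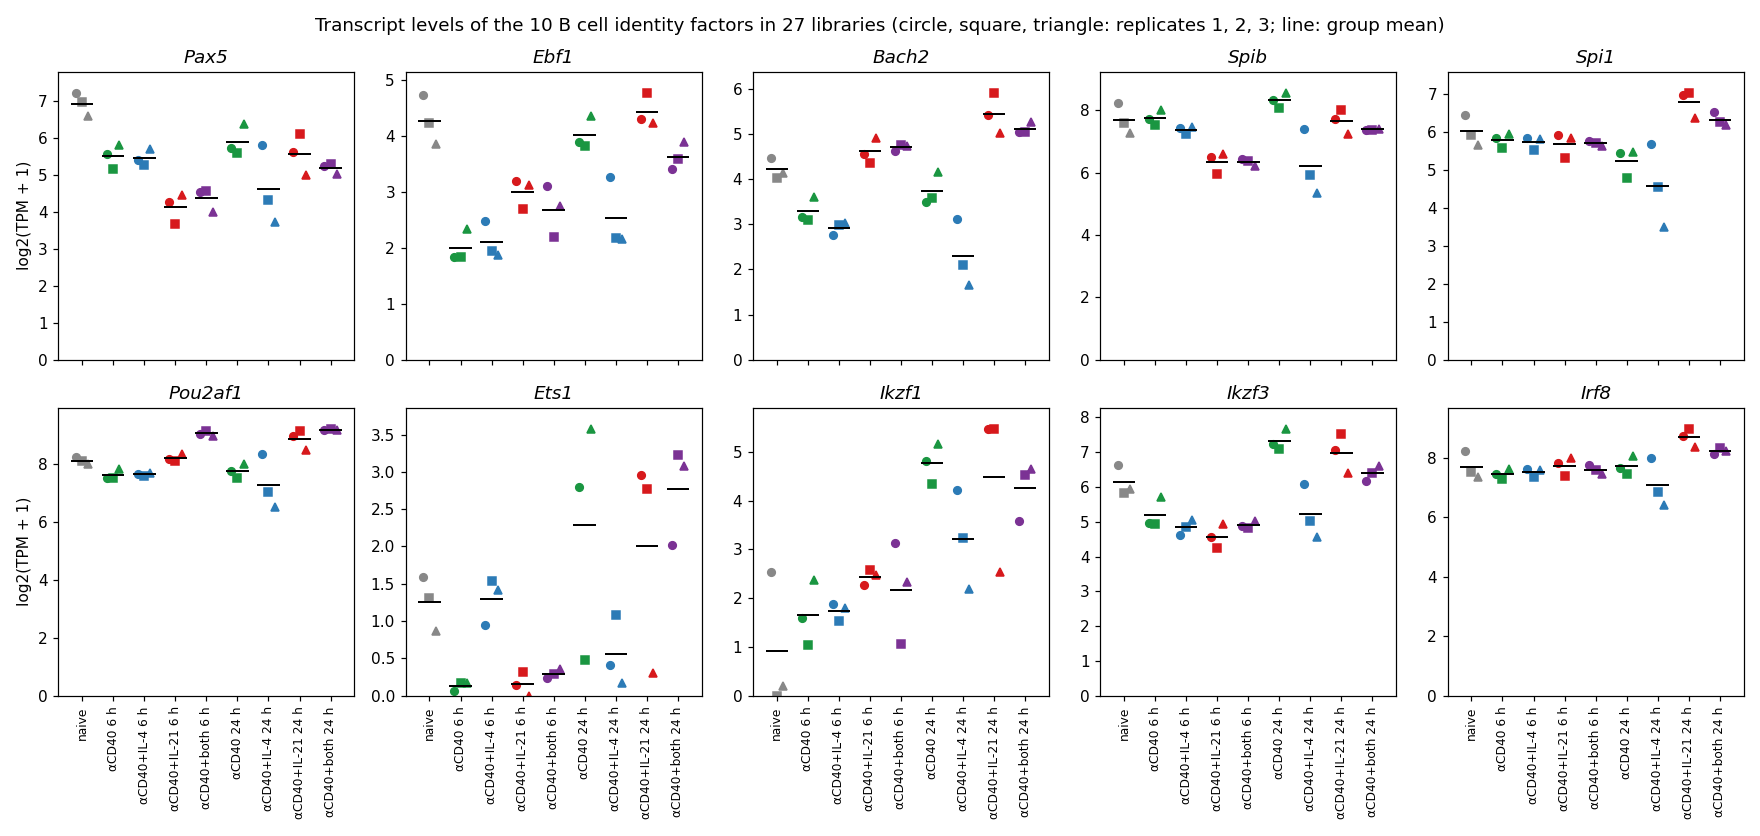
Each panel is 1 gene, with log2(TPM + 1) on the y axis (a log scale) and the 9 groups on the x axis. Points are single libraries and lines are means of 3 libraries. Bach2 is higher in every library with IL-21 (red and purple) than in any library without it at the same time, and Pax5 is highest in naive cells (grey).

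Among the ETS factors, Spib was at 301, 191 and 154 TPM in naive cells. With anti-CD40 alone it was at 209, 185 and 258 TPM at 6 h and 322, 267 and 373 TPM at 24 h. With IL-4 it was at 171, 149 and 174 TPM and then 167, 59.6 and 39.3 TPM, with replicate 1 of the 24 h group far above the other 2. With IL-21 it was at 89.1, 60.6 and 95.2 TPM at 6 h and 208, 254 and 151 TPM at 24 h, and with both cytokines at 86, 82 and 73.1 TPM and 165, 164 and 169 TPM. At 6 h the 6 libraries with IL-21 reached at most 95.2 TPM and the 6 without it were at 149.3 TPM or more. IL-21 lowered Spib at 6 h (-1.41 ± 0.34, adjusted p = 0.00692), a call kept under every alternative tried. With IL-4 present the change at 6 h was -1.03 ± 0.34, adjusted p = 0.146, without overlap but short of the threshold. Spib rose from 6 h to 24 h with IL-21 (1.31 ± 0.34, adjusted p = 0.00437, kept under every alternative) and with both cytokines (1.04 ± 0.34, adjusted p = 0.023). The rise with both cytokines was lost on leaving out 5 of 6 libraries in turn (adjusted p from 0.0527 to 0.0698, kept without replicate 1 of both cytokines at 6 h), and with no filter (0.0555).

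Spi1, which encodes PU.1, varied little between the 6 h groups. Naive cells held 87.6, 60.4 and 49.4 TPM. The 6 h values were 56.2, 47.2 and 61 TPM with anti-CD40 alone, 56.8, 45.7 and 55.6 TPM with IL-4, 59.4, 38.6 and 56.2 TPM with IL-21 and 53.8, 51.9 and 48.6 TPM with both. At 24 h they were 43.1, 26.7 and 43.9 TPM, 50.6, 22.4 and 10.2 TPM, 126, 129.9 and 82.2 TPM and 91.1, 76.9 and 71.8 TPM in the same order. The 6 h groups all overlapped, whereas at 24 h both groups with IL-21 were above both groups without it. IL-21 raised Spi1 at 24 h by 1.55 ± 0.35, adjusted p = 0.00234 with anti-CD40 alone, a call kept under every alternative tried, and by 1.76 ± 0.35, adjusted p = 0.00122 with IL-4. The latter was 2.31, adjusted p = 1.78e-06 in the fit without both replicates 1, and had an adjusted p of 0.142 in the fit to the compared groups only. At 6 h the changes with IL-21 were -0.11 ± 0.35 and -0.03 ± 0.35, and neither passed. Spi1 rose from 6 h to 24 h with anti-CD40 and IL-21 (1.11 ± 0.35, adjusted p = 0.016), a call lost on leaving out replicate 2 of anti-CD40 and IL-21 at 6 h (adjusted p = 0.0827) or replicate 1 or 2 of anti-CD40 and IL-21 at 24 h (adjusted p = 0.0591 and 0.066). The relation to PU.1's partner Spib differed with IL-21 too: the ratio of Spi1 to Spib TPM within a library was 0.10 to 0.375 in the 15 libraries without IL-21 and 0.424 to 0.667 in the 12 with it.

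Ets1 was low, and its values were erratic between replicates, most of all at 24 h. It was listed at 2, 1.49 and 0.825 TPM in naive cells and, at 6 h, at 0.038, 0.125 and 0.12 TPM with anti-CD40 alone, 0.927, 1.91 and 1.67 TPM with IL-4, 0.102, 0.243 and 0 TPM with IL-21 and 0.173, 0.223 and 0.283 TPM with both. At 24 h it was listed at 5.95, 0.392 and 10.9 TPM, 0.324, 1.11 and 0.126 TPM, 6.79, 5.85 and 0.231 TPM and 3.06, 8.33 and 7.45 TPM. It was under 1 TPM in 15 of 27 libraries, and in the 24 h groups with anti-CD40 alone and with IL-21 single libraries differed from their replicates more than 10-fold. Fold changes on the log2(TPM + 1) scale understate the change of a gene this low. At 6 h anti-CD40 alone lay below naive cells without overlap (-1.13 ± 0.60, adjusted p = 0.178), which did not pass. IL-4 lay above anti-CD40 alone at 6 h without overlap (1.17 ± 0.60, adjusted p = 0.473), which did not pass either. The standard error is shared by all groups, those at 24 h included. Ets1 rose from 6 h to 24 h with both cytokines (2.48 ± 0.60, adjusted p = 0.00314), a call kept under every alternative tried. The rises from 6 h to 24 h with anti-CD40 alone (2.15 ± 0.60, adjusted p = 0.0119) and with IL-21 (1.86 ± 0.60, adjusted p = 0.0193) were lost on leaving out replicate 1 or 3 of anti-CD40 at 24 h (adjusted p = 0.0558 and 0.101) and, for IL-21, replicate 3 of anti-CD40 and IL-21 at 6 h (adjusted p = 0.0535) or replicate 1 or 2 of anti-CD40 and IL-21 at 24 h (adjusted p = 0.115 and 0.105). In the fits to the compared groups only both were lost as well (adjusted p = 0.0723 and 0.0891).

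Pou2af1, the octamer coactivator, was the most abundant of the 10 by its lowest library. It was at 299, 273 and 251 TPM in naive cells. With anti-CD40 alone it was at 182, 183 and 224 TPM at 6 h and 213, 182 and 254 TPM at 24 h, and with IL-4 at 202, 192 and 203 TPM and 320.4, 129 and 89.2 TPM. With IL-21 it was at 286, 272 and 322 TPM and 492, 558 and 351 TPM, and with both cytokines at 525, 562 and 501 TPM and 578, 587 and 569 TPM. Libraries with both cytokines were at 501.1 TPM or more, and replicate 2 of anti-CD40 and IL-21 at 24 h was the only other library that high. IL-21 raised Pou2af1 with IL-4 at 6 h (1.41 ± 0.27, adjusted p = 0.00306) and with anti-CD40 alone at 24 h (1.09 ± 0.27, adjusted p = 0.00539), and no alternative tried ended either call. The rise with IL-4 at 24 h was 1.9 ± 0.27, adjusted p = 3.35e-05, or 2.42, adjusted p = 2.87e-09 in the fit without both replicates 1, and it had an adjusted p of 0.0877 in the fit to the compared groups only. With anti-CD40 alone at 6 h the change was 0.58 ± 0.27, adjusted p = 0.198, which did not pass.

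Irf8, which works with PU.1 and SPIB on composite sites, was at 296, 179.7 and 163 TPM in naive cells. At 6 h it was at 173, 155 and 197 TPM with anti-CD40 alone, 194, 161 and 191 TPM with IL-4, 224, 165 and 254 TPM with IL-21 and 214, 190.2 and 172 TPM with both. At 24 h it was at 202, 175 and 264 TPM, 251, 114 and 84 TPM, 422, 496 and 325 TPM and 276, 315 and 298 TPM. The 6 h groups and naive cells overlapped throughout, and at 24 h both IL-21 groups lay above every other library of that time. IL-21 raised Irf8 at 24 h by 0.95 ± 0.29, adjusted p = 0.0175 with anti-CD40 alone, a call lost on leaving out replicate 1 or 2 of anti-CD40 at 24 h (adjusted p = 0.0538 and 0.0868) or replicate 1 or 2 of anti-CD40 and IL-21 at 24 h (adjusted p = 0.0517 and 0.0825). From 6 h to 24 h with anti-CD40 and IL-21 it rose by 0.95 ± 0.29, adjusted p = 0.0122, lost on leaving out replicate 2 of anti-CD40 and IL-21 at 6 h (adjusted p = 0.0731) or replicate 2 of anti-CD40 and IL-21 at 24 h (adjusted p = 0.0643).

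Ikzf3, which encodes Aiolos, was at 98.5, 56.2 and 60.7 TPM in naive cells. With anti-CD40 alone it was at 30.2, 29.7 and 51.6 TPM at 6 h and 149.5, 135 and 202 TPM at 24 h. With IL-4 it was at 23.7, 27.6 and 32.1 TPM and 66.8, 31.3 and 22.5 TPM, with IL-21 at 22.4, 17.8 and 29.5 TPM and 133, 182 and 83.1 TPM, and with both cytokines at 28.4, 27.2 and 31.2 TPM and 70.8, 84.1 and 96.2 TPM. All 6 h libraries were below all naive libraries, and all 24 h libraries with anti-CD40 alone were above them. The fall at 6 h with anti-CD40 alone was -0.93 ± 0.33, adjusted p = 0.0343. It was lost on leaving out replicate 1 of naive (adjusted p = 0.16) or replicate 1 or 2 of anti-CD40 at 6 h (adjusted p = 0.119 and 0.127), and in 3 other settings (adjusted p = 0.0672 in the fit without both replicates 1, 0.0723 in the compared groups only and 0.0724 with no filter). At 24 h Ikzf3 was above naive cells by 1.19 ± 0.33, adjusted p = 0.00959, lost on leaving out replicate 2 of naive (adjusted p = 0.0545) or replicate 3 of anti-CD40 at 24 h (adjusted p = 0.0552). The rises from 6 h to 24 h were kept under every alternative: 2.12 ± 0.33, adjusted p = 6.03e-05 with anti-CD40 alone, 2.42 ± 0.33, adjusted p = 5.69e-06 with IL-21 and 1.49 ± 0.33, adjusted p = 0.00133 with both cytokines.

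Ikzf1, which encodes Ikaros, was listed at 4.78, 0 and 0.137 TPM in naive cells, values that differ so much between replicates that no mean is given. At 6 h it was at 2.01, 1.04 and 4.14 TPM with anti-CD40 alone, 2.65, 1.87 and 2.45 TPM with IL-4, 3.82, 4.92 and 4.51 TPM with IL-21 and 7.78, 1.09 and 4 TPM with both. At 24 h it was at 26.9, 19.1 and 34.6 TPM, 17.4, 8.39 and 3.57 TPM, 43, 43.2 and 4.79 TPM and 11, 22.1 and 24.1 TPM. The 24 h libraries with anti-CD40 alone were all above every naive and every 6 h library. Ikzf1 rose with anti-CD40 alone from naive cells to 24 h (3.85 ± 0.71, adjusted p = 0.000308) and from 6 h to 24 h (3.10 ± 0.71, adjusted p = 0.0027), and no alternative tried ended either call. The first of these was 4.67, adjusted p = 2.57e-05 in the fit without both replicates 1, and it ran from 3.40 to 5.75 over the alternatives. The naive values behind it, 4.78, 0 and 0.137 TPM, leave its size uncertain. The rise from 6 h to 24 h was 2.05 ± 0.71, adjusted p = 0.0271 with IL-21 and 2.08 ± 0.71, adjusted p = 0.0292 with both cytokines. The first was lost on leaving out 5 of 6 libraries in turn (adjusted p from 0.0553 to 0.145, kept without replicate 3 of anti-CD40 and IL-21 at 24 h) and in 4 other settings (adjusted p from 0.0518 to 0.103), and the second on leaving out replicate 2 or 3 of both cytokines at 6 h (adjusted p = 0.166 and 0.0556) or replicate 2 or 3 of both cytokines at 24 h (adjusted p = 0.0873 and 0.0964) and in 2 other settings (0.0719 and 0.0808).

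Ordered by group mean, most neighbouring groups could not be told apart by their spread. Of the 8 neighbouring pairs in each order, all 8 overlapped for Spi1, Ets1, Ikzf1 and Ikzf3, 7 for Pax5, Ebf1 and Spib, and 6 for Bach2, Pou2af1 and Irf8. Bach2 ran from 44.2 TPM with IL-21 at 24 h through both cytokines at 24 h (33.9), both at 6 h (25.2), IL-21 at 6 h (23.9), naive (17.8), anti-CD40 at 24 h (12.8) and 6 h (8.88) and IL-4 at 6 h (6.63) to 4.37 TPM with IL-4 at 24 h. Its separated neighbours were both cytokines at 24 h and at 6 h, and anti-CD40 alone and with IL-4 at 6 h. Pou2af1 ran from 578.2 TPM (both cytokines, 24 h) to 179.4 TPM (IL-4, 24 h) and Irf8 from 414.0 TPM (IL-21, 24 h) to 149.7 TPM (IL-4, 24 h). Spib was highest with anti-CD40 alone at 24 h (320.4 TPM) and lowest with both cytokines at 6 h (80.4 TPM), Spi1 highest with IL-21 at 24 h (112.8 TPM) and lowest with IL-4 at 24 h (27.7 TPM). Ebf1 was highest with IL-21 at 24 h (21 TPM) and lowest with anti-CD40 alone at 6 h (3.07 TPM), and Ikzf3 was highest with anti-CD40 alone at 24 h (162.3 TPM) and lowest with IL-21 at 6 h (23.2 TPM).

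Set side by side by comparison, anti-CD40 alone against naive cells at 6 h called 4 of the 10 factors, Pax5, Ebf1, Bach2 and Ikzf3, all lower, where 29.9% of all tested genes were called, 16.6% higher and 13.3% lower. The 24 h comparison called 3, Ikzf1 and Ikzf3 higher and Pax5 lower, where 26.8% of genes were called, 18.9% higher and 7.85% lower. The median log2 change of the 10 factors was -0.71 at 6 h and -0.11 at 24 h, beside 0.06 and 0.25 over all tested genes. Relative to the latter the 24 h changes were 3.61 for Ikzf1, 0.94 for Ikzf3 and -1.27 for Pax5. The 6 h count was 2 on leaving out replicate 1 of naive or replicate 1 or 2 of anti-CD40 at 6 h. The 24 h count was 1 on leaving out replicate 2 of naive. In the fit without both replicates 1 the counts were 3 at 6 h, without Ikzf3, and 4 at 24 h, with Spib added (0.88, adjusted p = 0.00368). There 4433 of the 12147 tested genes were called at 6 h and 4716 at 24 h. With median-of-ratios rescaling the 24 h count was 6, since Bach2, Spi1 and Pou2af1 were called lower as well, and the share of called genes that were higher went from 70.7% to 44.9%. Both comparisons share the naive libraries.

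**Figure D3:**
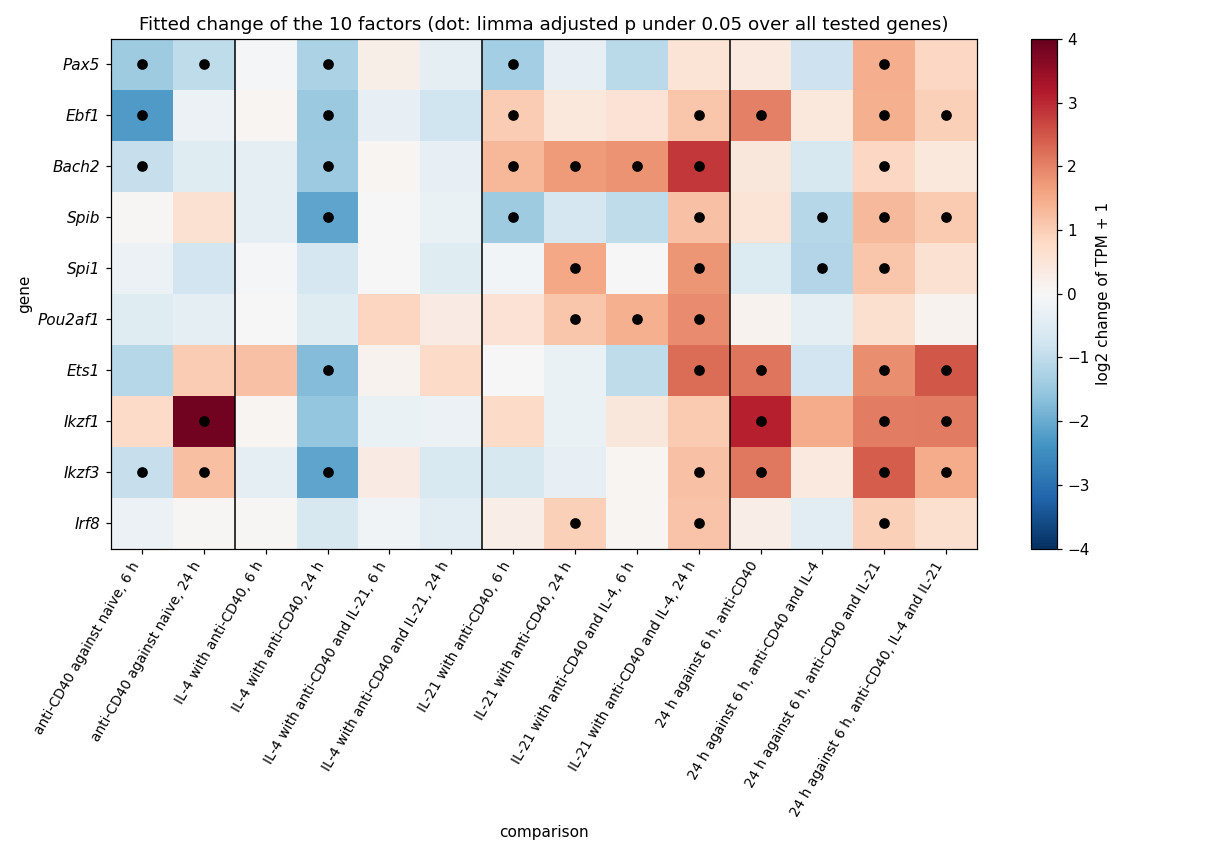
Color gives the fitted log2 change of TPM + 1 (blue lower, red higher) of each of the 10 genes (rows) in 14 comparisons (columns), and a dot marks an adjusted p under 0.05 over all 12147 tested genes. Bach2 is the gene with dots in all 4 columns that add IL-21, and the column of IL-21 beside anti-CD40 and IL-4 at 24 h has 8 dots, all higher.

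At 6 h IL-4 beside anti-CD40 called none of the 10 factors by limma, where 4.04% of all tested genes were called (1.65% higher, 2.4% lower). None was at an unadjusted p under 0.05, and 1, Ets1, was called in the fit to the compared groups only. By 24 h IL-4 called 6, Pax5, Ebf1, Bach2, Spib, Ets1 and Ikzf3, all lower, where 31.4% of genes were called (8.28% higher, 23.1% lower). The largest of these were Ikzf3 (-2.11 ± 0.33, adjusted p = 4.67e-05), kept under every alternative tried, and Spib (-2.10 ± 0.34, adjusted p = 7.6e-05). Bach2 changed by -1.46 ± 0.28, adjusted p = 0.000527 and Ebf1 by -1.50 ± 0.31, adjusted p = 0.000866. Pax5 (-1.27 ± 0.38, adjusted p = 0.0138) and Ets1 (-1.73 ± 0.60, adjusted p = 0.0325) had overlapping groups. The median of all tested genes was -0.31 in this comparison, and relative to it the changes were -1.80 for Ikzf3, -1.79 for Spib, -1.19 for Ebf1, -1.15 for Bach2 and -0.96 for Pax5. Replicate 1 of anti-CD40 and IL-4 at 24 h was the library of its group nearest to anti-CD40 alone for the 5 of these other than Ets1. In the fit without both replicates 1, 9 of the 10 were called lower, all but Ets1 (Spib -2.69, adjusted p = 2.03e-08 and Pax5 -1.86, adjusted p = 6.72e-05). In that fit 5979 of the 12147 tested genes were called in either direction, against 3816 in the main fit. In the fit to the compared groups only, where the spread of this group is not averaged with that of the others, 1 remained called, Ikzf3. There 913 of the 12147 tested genes were called. The call for Pax5 was lost on leaving out replicate 3 of anti-CD40 at 24 h (adjusted p = 0.088) or replicate 2 or 3 of anti-CD40 and IL-4 at 24 h (adjusted p = 0.0675 and 0.129), and that for Ets1 on leaving out replicate 1 or 3 of anti-CD40 at 24 h (adjusted p = 0.117 and 0.233) or replicate 1 or 3 of anti-CD40 and IL-4 at 24 h (adjusted p = 0.0544 and 0.123) and with no filter (0.0827). Beside anti-CD40 and IL-21, IL-4 called none of the 10 factors at 6 h, where 4.16% of genes were called (1.27% higher, 2.89% lower), and none at 24 h, where 6.75% were called (2.22% higher, 4.53% lower). At an unadjusted p under 0.05 there was 1 at each time, Pou2af1 at 6 h (0.85 ± 0.27, adjusted p = 0.0942) and Ebf1 at 24 h (-0.81 ± 0.31, adjusted p = 0.138). Pou2af1 at 6 h passed in 3 other settings, and no member passed at 24 h in any.

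IL-21 beside anti-CD40 alone called 4 factors at 6 h, Bach2 and Ebf1 higher and Pax5 and Spib lower, where 12.1% of genes were called (7.43% higher, 4.68% lower). The count was 2 on leaving out replicate 1 of anti-CD40 at 6 h. At 24 h it called 4, Bach2, Spi1, Pou2af1 and Irf8, all higher, where 24.2% were called (17.8% higher, 6.33% lower). The median of all tested genes was 0.23 at 24 h, and relative to it Bach2 changed by 1.47, Spi1 by 1.32, Pou2af1 by 0.86 and Irf8 by 0.72. In this comparison mitochondrial transcripts made up 8.14%, 6.56% and 7.68% of listed TPM with IL-21 against 10.4%, 11.8% and 8.51% with anti-CD40 alone. Ribosomal protein transcripts made up 18.3% to 23.9% against 24.9% to 29.2%, so that neither share overlapped. With mitochondrial, ribosomal protein and pseudogene transcripts removed and TPM rescaled, all 4 calls were kept, Spib was called lower as well, and the median of all tested genes was 0.05. With median-of-ratios rescaling all 4 were kept too, and Spib and Ikzf3 were called lower. Beside anti-CD40 and IL-4 at 6 h, IL-21 called 2, Bach2 and Pou2af1, both higher, where 2.54% of genes were called (1.25% higher, 1.28% lower). With the libraries rescaled by median of ratios, Pax5 and Spib were called lower there as well. Here 24 h gave 8 calls, all but Pax5 and Ikzf1 and all higher, where 24.2% were called (21.8% higher, 2.39% lower). Besides Bach2, Spi1 and Pou2af1 these were Ets1 (2.22 ± 0.60, adjusted p = 0.0123), Ikzf3 (1.18 ± 0.33, adjusted p = 0.0142), Spib (1.17 ± 0.34, adjusted p = 0.018), Irf8 (1.14 ± 0.29, adjusted p = 0.00766) and Ebf1 (1.10 ± 0.31, adjusted p = 0.0147). With IL-4 the mitochondrial share was 8.04%, 6.97% and 7.23% with IL-21 against 7.89%, 11.6% and 11% without it, and the ribosomal protein share 21.9% to 22.7% against 23% to 29.2%. With these transcripts removed all 8 calls were kept. The median of all tested genes was 0.38, and with median-of-ratios rescaling it was 0.00, while the share of called genes that were higher went from 90.1% to 49.6%. Relative to the median, the changes were 2.45 for Bach2, 1.84 for Ets1, 1.52 for Pou2af1, 1.37 for Spi1, 0.79 for Ikzf3, 0.79 for Spib, 0.75 for Irf8 and 0.72 for Ebf1, and all 8 calls were kept with rescaling. In the fit without both replicates 1, where 5890 of the 12147 tested genes were called against 2941 in the main fit, 9 factors were called higher, Pax5 among them. Ets1 was at 2.15, adjusted p = 0.0163, Ikzf3 at 1.61, adjusted p = 0.000114, Spib at 1.76, adjusted p = 3.76e-06, Irf8 at 1.58, adjusted p = 4.09e-06 and Ebf1 at 1.47, adjusted p = 0.000218. In the compared groups only, 2 were called (Bach2 and Ets1), where 342 of the 12147 tested genes were called. Leaving out 1 library gave 4 calls without replicate 2 and 3 without replicate 3 of anti-CD40 and IL-4 at 24 h, and 5 without replicate 3 of both cytokines at 24 h. Comparisons with IL-21 and those with IL-4 at the same time share their anti-CD40 libraries.

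The calls lost on leaving out a library in the last comparison were as follows. For Ebf1 these were replicate 2 or 3 of anti-CD40 and IL-4 at 24 h (adjusted p = 0.0937 and 0.107) or replicate 3 of both cytokines at 24 h (adjusted p = 0.067). Spib lost its call without replicate 2 or 3 of anti-CD40 and IL-4 at 24 h (adjusted p = 0.0959 and 0.183) or replicate 3 of both cytokines at 24 h (adjusted p = 0.0525), and its groups overlapped. The losses for Ikzf3 came without replicate 2 or 3 of anti-CD40 and IL-4 at 24 h (adjusted p = 0.0734 and 0.136) or replicate 3 of both cytokines at 24 h (adjusted p = 0.0587). Irf8 lost it without replicate 2 or 3 of anti-CD40 and IL-4 at 24 h (adjusted p = 0.05 and 0.0877). Ets1, finally, lost it without replicate 3 of anti-CD40 and IL-4 at 24 h (adjusted p = 0.074) or replicate 2 of both cytokines at 24 h (adjusted p = 0.0557).

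Over time, between 6 h and 24 h, the factors called were 4 with anti-CD40 alone (Ebf1, Ets1, Ikzf1 and Ikzf3), all higher, where 24.3% of genes were called (16.1% higher, 8.17% lower). With IL-4 it was 2 (Spib and Spi1), both lower, where 25.4% were called (8.82% higher, 16.6% lower). Spib changed by -1.15 ± 0.34, adjusted p = 0.0156 and Spi1 by -1.16 ± 0.35, adjusted p = 0.0179, both with overlapping groups. The first was lost on leaving out replicate 2 or 3 of anti-CD40 and IL-4 at 24 h (adjusted p = 0.08 and 0.143) and the second on leaving out replicate 1 or 3 of anti-CD40 and IL-4 at 6 h (adjusted p = 0.0564 and 0.0531) or replicate 2 or 3 of anti-CD40 and IL-4 at 24 h (adjusted p = 0.057 and 0.172). In the compared groups only neither was called (adjusted p = 0.22 and 0.234), where 522 of the 12147 tested genes were called. In the fit without both replicates 1, 6 factors were called lower, where 5089 of the 12147 were called. With IL-21 it was 9, all but Pou2af1 and all higher, where 35.5% were called (26.2% higher, 9.3% lower), with 5 calls left without replicate 2 of anti-CD40 and IL-21 at 6 h, 5 without replicate 1 and 4 without replicate 2 of that condition at 24 h. With both cytokines it was 5 (Ebf1, Spib, Ets1, Ikzf1 and Ikzf3), all higher, where 30.2% were called (20.8% higher, 9.46% lower). That count was 2 without replicate 2 and 3 without replicate 3 of both cytokines at 6 h, and 3 and 2 without replicates 2 and 3 of both cytokines at 24 h. The median log2 changes of the 10 factors were 0.51, -0.54, 1.37 and 0.89 in these 4 comparisons, beside 0.15, -0.13, 0.24 and 0.12 over all tested genes.

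Whether one cytokine changed the effect of the other was tested as an interaction. At 6 h none of the 10 factors was called, where 0.412% of genes were called (0.148% higher, 0.263% lower), 1 was at an unadjusted p under 0.05 (Pou2af1, 0.83 ± 0.39, adjusted p = 0.68), and 1 factor passed in the compared groups only. At 24 h 1 was called, Spib (1.83 ± 0.48, adjusted p = 0.0232), where 5.8% were called (3.33% higher, 2.48% lower). The IL-21 effect on Spib was -0.67 ± 0.34 beside anti-CD40 alone and 1.17 ± 0.34 beside IL-4. In the fit without both replicates 1, 6 factors were called in this interaction, where 3015 of the 12147 tested genes were called. With no filter or in the compared groups only none of the 10 was, and in the latter fit 289 of the 12147 tested genes were called. The change of the IL-21 effect between 6 h and 24 h called none with anti-CD40 alone, where 4.44% of genes were called (3.1% higher, 1.34% lower), with Spi1 at an unadjusted p under 0.05 (1.66 ± 0.49, adjusted p = 0.0596) and called with the replicate block, in 3 other settings and without replicate 3 of anti-CD40 and IL-21 at 24 h. With IL-4 it called 3 (Spib, Spi1 and Ets1), all higher, where 4.24% were called (3.66% higher, 0.576% lower). The change of the IL-4 effect with time called 4 (Ebf1, Spib, Ets1 and Ikzf3), all lower, where 7.19% were called (2.12% higher, 5.07% lower).

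Ratios of 2 factors within a library do not depend on the total to which TPM are scaled. The ratio of Bach2 to Pax5 was 0.124 to 0.236 in all 15 libraries without IL-21, naive cells included, and 0.849 to 1.71 in all 12 libraries with it, at both times and with or without IL-4. The ratio of Pou2af1 to Pax5 was 2.02 to 7.23 without IL-21 and 8.17 to 33.4 with it. The ratio of Ebf1 to Pax5 overlapped, at 0.0520 to 0.281 without and 0.156 to 0.579 with IL-21, and so did that of Ikzf3 to Pax5, at 0.453 to 2.88 and 1.19 to 3.06. These pairs, and that of Spi1 and Spib above, were chosen after the values were seen, so the ranges are given without a test. Replicate 1 of anti-CD40 and IL-4 at 24 h, which stood apart in the level of 9 factors, lay inside the range of the other libraries without IL-21 for the first 2 of these ratios.

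**Figure D4:**
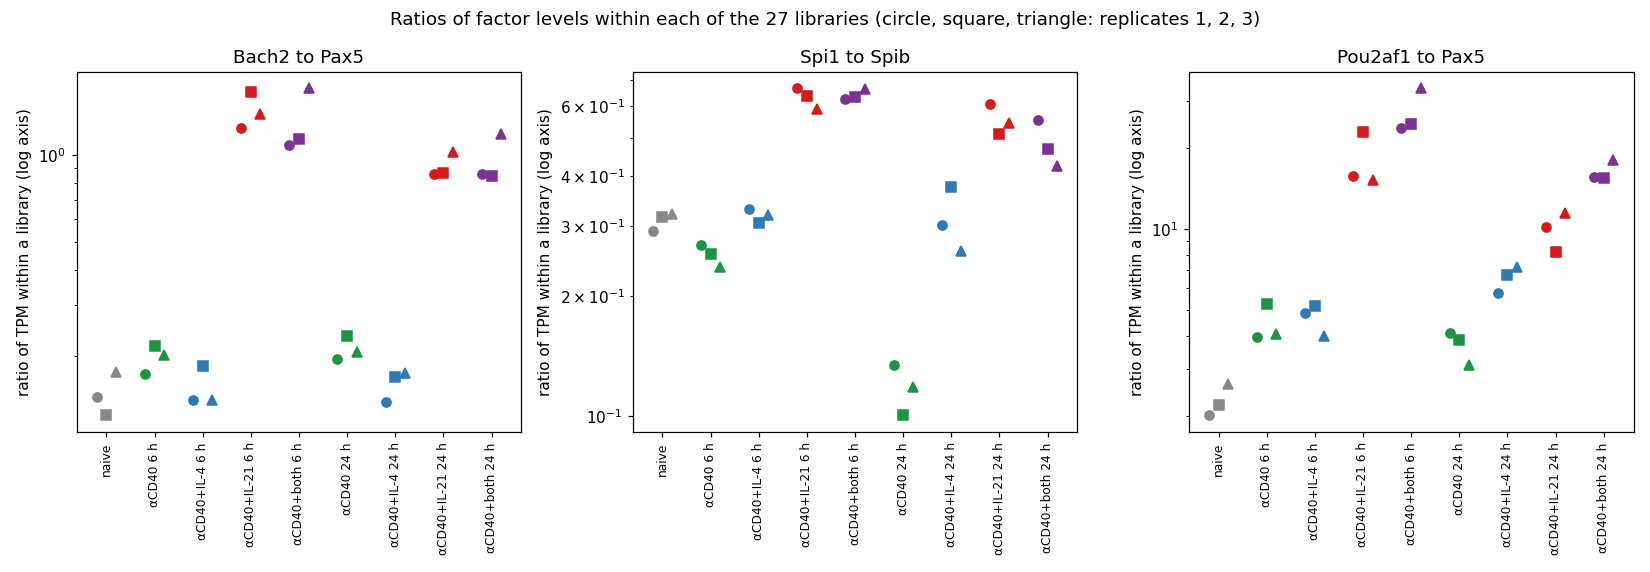
Each point is the ratio of 2 genes' TPM in 1 library (y axis, log scale), by group (x axis), for Bach2 to Pax5, Spi1 to Spib and Pou2af1 to Pax5. Libraries with IL-21 (red and purple) lie above all libraries without it in each panel, 0.849 to 1.71 against 0.124 to 0.236 for Bach2 to Pax5.

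Other genes of the network, targets and fellow factors, were followed through 5 lists, which share Irf4, Jchain and Xbp1 between them. Of 17 tested B cell target genes, 11 were lower and none higher with anti-CD40 alone at 6 h (median -1.01), where 13.3% of all tested genes were lower. They included Cd22, an inhibitory receptor of the B cell receptor (-3.89 ± 0.48, adjusted p = 1.27e-06), Cr2, the complement receptor CD21 (-3.55 ± 0.31, adjusted p = 9.03e-09), and Vpreb3 (-2.43 ± 0.29, adjusted p = 7.57e-07). At 24 h with anti-CD40 alone 4 were higher and 4 lower than in naive cells (median 0.33, all genes 18.9% and 7.85%). IL-21 beside anti-CD40 alone gave 7 lower and 1 higher at 6 h (all genes, 4.68% and 7.43%), among them Fcer2a, which encodes CD23 (-4.01 ± 0.58, adjusted p = 4.32e-05), Cd79a, a signaling chain of the B cell receptor (-2.48 ± 0.53, adjusted p = 0.00284), and, higher, the inhibitory Fc receptor Fcgr2b (0.67 ± 0.16, adjusted p = 0.00624). The 24 h counts were 4 lower and 3 higher (median -0.10, all genes 6.33% and 17.8%), with Ms4a1, which encodes CD20, lower (-1.93 ± 0.19, adjusted p = 1.6e-07) and Fcgr2b higher (1.27 ± 0.16, adjusted p = 3.54e-06). With IL-4 at 6 h IL-21 gave 5 lower and 1 higher (all genes, 1.28% and 1.25%), and at 24 h 3 lower and 8 higher (2.39% and 21.8%). The 5 lower at 6 h were 3 without replicate 1 of anti-CD40 and IL-4 or replicate 3 of both cytokines, and the 24 h counts were 1 lower and 2 higher in the compared groups only. From 6 h to 24 h with anti-CD40 and IL-21, 14 of the 17 rose and none fell (median 2.06), where 26.2% of all tested genes rose, led by Cd22 (4.76 ± 0.48, adjusted p = 1.02e-07), Cd72 (3.45 ± 0.29, adjusted p = 8.08e-09) and the kinase Btk (3.14 ± 0.46, adjusted p = 1.68e-05). In this comparison 9 of the 10 factors rose as well. The rise of the target genes was not limited to IL-21. Over the same time with anti-CD40 alone, 9 of the 17 rose and none fell (median 1.33, all genes 16.1% and 8.17%). With IL-4, 5 rose and 5 fell (median 0.50, all genes 8.82% and 16.6%). With both cytokines 8 rose and 1 fell (median 0.89, all genes 20.8% and 9.46%). IL-4 at 24 h gave 13 lower and none higher, where 23.1% of all tested genes were lower, with Cr2 at -4.25 ± 0.31, adjusted p = 1.56e-09 and the kinase Syk at -3.44 ± 0.34, adjusted p = 1.46e-07. The last count was 8 without replicate 3 of anti-CD40 and IL-4 at 24 h and 5 in the compared groups only.

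Of 28 other B lineage factors, all tested, 6 were higher and 9 lower with anti-CD40 alone at 6 h, where 16.6% and 13.3% of all tested genes were. Irf4, which is needed for both germinal center and plasma cells, rose (1.99 ± 0.33, adjusted p = 5.52e-05), and Klf2, a factor of resting cells, and Hhex fell (-3.98 ± 0.32, adjusted p = 2.46e-09 and -3.19 ± 0.25, adjusted p = 1.33e-09). Of these 28, IL-21 beside anti-CD40 alone gave 2 lower at 6 h, Myb (-1.72 ± 0.23, adjusted p = 1.45e-05) and Hhex, where 4.68% of all tested genes were lower. With median-of-ratios rescaling 10 were lower. That fit also moved the share of called genes that were higher from 61.4% to 53.7%, so the 4.68% cannot be set beside the 10. The 24 h counts were 5 higher, among them Runx1 (2.88 ± 0.37, adjusted p = 3.92e-06), and 4 lower, among them Myb (-2.32 ± 0.23, adjusted p = 9.79e-08), beside 17.8% and 6.33% of all tested genes. The higher count was 2 without replicate 2 of anti-CD40 at 24 h or of anti-CD40 and IL-21 at 24 h, and 3 without replicate 1 of either group. The lower count was 2 without replicate 3 of anti-CD40 and IL-21 at 24 h. It was 7 with median-of-ratios rescaling, where the share of called genes that were higher went from 73.8% to 57.0%. With IL-4 at 24 h it gave 15 higher and 3 lower (21.8% and 2.39% of all tested genes), with Runx1 (3.49 ± 0.37, adjusted p = 3.4e-07) and Bcl6, the germinal center factor (2.47 ± 0.25, adjusted p = 2.25e-07), among the former, while IL-4 beside anti-CD40 alone gave none higher and 18 lower at 24 h (all tested genes, 8.28% and 23.1%), Bcl6 among them (-2.64 ± 0.25, adjusted p = 8.15e-08). The 2 comparisons share the anti-CD40 and IL-4 libraries. The 15 were 9 without replicate 3 of that group, and in the compared groups only the 15 and the 18 were 3 and 2.

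Of 12 tested plasma cell and opposing genes, IL-21 beside anti-CD40 alone gave 3 higher and 2 lower at 6 h and 6 higher and 2 lower at 24 h, where 7.43% and 4.68%, then 17.8% and 6.33%, of all tested genes were. The largest was Id2, an inhibitor of E proteins, at 2.95 ± 0.13, adjusted p = 3.99e-13 and 3.90 ± 0.13, adjusted p = 1.95e-15, while Mzb1, a chaperone of antibody-secreting cells, was lower (-1.43 ± 0.14, adjusted p = 2.15e-07 and -1.39 ± 0.14, adjusted p = 1.57e-07). The 3 higher at 6 h were 1 without replicate 1 or 2 of anti-CD40 or replicate 3 of anti-CD40 and IL-21. With IL-4, IL-21 gave 7 higher and 1 lower at 24 h (21.8% and 2.39% of all tested genes), or 2 and 0 in the compared groups only. Beside anti-CD40 alone Irf4 was also lower at 24 h (-1.21 ± 0.33, adjusted p = 0.00967). Of 13 tested family relatives, 6 were lower and 1 higher with anti-CD40 alone at 6 h (13.3% and 16.6% of all tested genes), with Irf7 (-2.15 ± 0.44, adjusted p = 0.000535) and Irf1 (-1.17 ± 0.25, adjusted p = 0.000873) among the lower. IL-21 beside anti-CD40 alone called none at 6 h, where 12.1% of all tested genes were called. At 24 h it called 1, Irf5 (-1.89 ± 0.45, adjusted p = 0.00337), where 6.33% were lower. Beside anti-CD40 and IL-4 at 24 h, IL-21 gave 2 higher and none lower (21.8% and 2.39%). IL-4 beside anti-CD40 alone at 24 h gave 8 lower and none higher (23.1% and 8.28%, median -1.06). These 8 were 5 without replicate 3 of anti-CD40 and IL-4 at 24 h. Of 4 tested genes that PAX5 represses, 1 was lower with anti-CD40 alone at 6 h, where 13.3% of all tested genes were lower. It was Jchain (-1.48 ± 0.42, adjusted p = 0.00936), a call lost on leaving out replicate 3 of naive. With IL-21 beside anti-CD40 alone, Ccr2 was higher (1.31 ± 0.23, adjusted p = 0.000345) and Xbp1 lower (-1.24 ± 0.37, adjusted p = 0.0267) at 6 h, where 7.43% and 4.68% of all tested genes were. At 24 h Ccr2 (1.07 ± 0.23, adjusted p = 0.00134) and Jchain (1.16 ± 0.42, adjusted p = 0.0478) were higher, where 17.8% of all tested genes were. The Xbp1 call was lost on leaving out 4 of 6 libraries in turn, kept without replicate 2 of anti-CD40 and replicate 1 of anti-CD40 and IL-21. At 24 h 1 of the 4 was left without any 1 of the 3 anti-CD40 libraries or replicate 3 of anti-CD40 and IL-21.

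For each factor, the 2 protein-coding genes with the most similar pattern over the 9 group means were found among 5347 candidates. They were Mindy1 (r = 0.968) and Mppe1 (r = 0.967) for Pax5, Slc35c2 (0.981) and Arhgap25 (0.959) for Ebf1, and Slc25a30 (0.967) and Agpat4 (0.960) for Bach2. For Spib they were Akna (0.948) and Vmac (0.945), for Spi1 Gnas (0.977) and Myl12a (0.970), and for Pou2af1 Ccdc71l (0.934) and Med13l (0.932). For Ikzf3 they were Ivd (0.990) and Helz2 (0.988), for Ikzf1 Creb1 (0.981) and Aak1 (0.974), for Ets1 Zmiz1 (0.950) and Gmppa (0.948), and for Irf8 Sec14l1 (0.983) and Jak1 (0.982). Among the 10 themselves, Bach2 and Pou2af1 were the most alike (r = 0.913 over 9 group means) and Pax5 and Pou2af1 the least (r = -0.159). All of these values share the same 27 libraries and describe these group means only.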

How the data were processed

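RNA-seq of poly(A) RNA was deposited by the authors as 1 table of values per gene and library. Its unit was read as TPM from the values, since the deposited header names none; Salmon 1.9.0 and the genome GRCm38 (mm10) are listed in the submitters' processing notes. Because TPM keep no read counts, count models were not used. From the table, log2(TPM + 1) was fitted for 27 libraries in limma 3.58.1 (R 4.3.3) with 1 mean for each of 9 groups and a variance trend (18 residual degrees of freedom). The test covered genes reaching 1 TPM in 3 or more libraries (12147 of 35604 listed). P-values were adjusted by Benjamini-Hochberg over all tested genes within each of 19 comparisons, and calls were made at adjusted p under 0.05. The script was checked on simulated data. The alternatives were median-of-ratios rescaling, a stricter filter (5 TPM) or none, a smaller pseudocount (0.1), removal of mitochondrial, ribosomal protein and pseudogene transcripts (gene types from GENCODE M21, which matched 35254 genes), no variance trend, the compared groups only, a replicate block, and leaving out libraries. Same-numbered libraries deviated together, with every pair's correlation over 0.1, in 3 of 14 comparisons: IL-4 with anti-CD40 (0.107 to 0.382), IL-21 with anti-CD40 (0.186 to 0.335) and IL-21 beside both anti-CD40 and IL-4 (0.183 to 0.377), all at 6 h. The 10 genes and the lists were chosen with earlier results of these data known. The 10 genes were named wherever called, and up to 3 called genes per list, direction and comparison with at least 5 TPM in the higher group could be named. Likeness was Pearson's r over 9 group means among protein-coding genes with a highest mean of at least 10 TPM and a range of at least 1 log2 unit.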

Additional observations from a re-analysis of the deposited data

Results flagged for a closer look

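For 8 results the effect of a cytokine differed between conditions or times by a test of the difference itself (limma, adjusted over all tested genes), and all 8 involve the anti-CD40 and IL-4 libraries at 24 h. The effect of IL-21 on Spib at 24 h was higher with IL-4 than without it by 1.83 ± 0.48, adjusted p = 0.0232, or 2.42, adjusted p = 2.44e-05 without replicate 1 of anti-CD40 and IL-4 at 24 h and replicate 1 of naive. It was lost on leaving out 6 of 12 libraries in turn (adjusted p from 0.0502 to 0.0742, kept without replicate 2 of anti-CD40 at 24 h, replicates 1 and 2 of anti-CD40 and IL-21 at 24 h, replicate 1 of anti-CD40 and IL-4 at 24 h and replicates 1 and 2 of both cytokines at 24 h). It was lost as well in the compared groups only (adjusted p = 0.142) and with no filter (0.051).

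With IL-4 present, the effect of IL-21 at 24 h was higher than at 6 h for Spib (2.20 ± 0.48, adjusted p = 0.00875, or 2.79, adjusted p = 2.63e-06 without those 2 libraries), a call that no single library ended but that missed the threshold in the compared groups only (0.0755). With IL-4 the effect of IL-21 was also higher at 24 h than at 6 h for 2 less stable calls. They were Spi1 (1.78 ± 0.49, adjusted p = 0.0404, or 2.34, adjusted p = 0.000141) and Ets1 (3.23 ± 0.85, adjusted p = 0.0316, or 3.16, adjusted p = 0.0152). The Spi1 call was lost on leaving out 11 of 12 libraries in turn (adjusted p from 0.0591 to 0.122, kept without replicate 1 of anti-CD40 and IL-4 at 24 h), in the compared groups only (0.165) and with no filter (0.0939). The Ets1 call was lost on leaving out 9 of 12 libraries in turn (adjusted p from 0.0504 to 0.0945, kept without replicates 1 and 2 of anti-CD40 and IL-4 at 24 h and replicate 1 of both cytokines at 24 h) and with no filter (0.0816).

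The effect of IL-4 beside anti-CD40 was lower at 24 h than at 6 h for Ebf1 (-1.59 ± 0.44, adjusted p = 0.0302, or -1.96, adjusted p = 0.000642 without those 2 libraries) and Spib (-1.71 ± 0.48, adjusted p = 0.0333, or -2.30, adjusted p = 3.06e-05). It was also lower for Ets1 (-2.90 ± 0.85, adjusted p = 0.0418, or -2.83, adjusted p = 0.0249) and Ikzf3 (-1.74 ± 0.46, adjusted p = 0.0258, or -2.18, adjusted p = 0.000356). The Ebf1 call was lost on leaving out 6 of 12 libraries in turn (adjusted p from 0.0674 to 0.0984, kept without replicates 1 and 2 of anti-CD40 at 24 h, replicate 3 of anti-CD40 at 6 h, replicate 1 of anti-CD40 and IL-4 at 24 h and replicates 2 and 3 of anti-CD40 and IL-4 at 6 h). Spib lost its call without 9 of 12 libraries in turn (adjusted p from 0.0544 to 0.115, kept without replicate 2 of anti-CD40 at 24 h, replicate 3 of anti-CD40 at 6 h and replicate 1 of anti-CD40 and IL-4 at 24 h). Ets1 lost its call without 10 of 12 libraries in turn (adjusted p from 0.0597 to 0.14, kept without replicate 2 of anti-CD40 at 24 h and replicate 1 of anti-CD40 and IL-4 at 24 h). Ikzf3 lost its call without 7 of 12 libraries in turn (adjusted p from 0.0529 to 0.0924, kept without replicates 1 and 2 of anti-CD40 at 24 h, replicate 3 of anti-CD40 at 6 h, replicate 1 of anti-CD40 and IL-4 at 24 h and replicate 1 of anti-CD40 and IL-4 at 6 h). In the compared groups only none of these 4 was called (adjusted p = 0.103 for Ebf1, 0.129 for Spib, 0.0967 for Ets1 and 0.0942 for Ikzf3), nor with no filter (0.0599, 0.0781, 0.102 and 0.0592). Leaving out the library that was the highest of its group for Ebf1, Spib, Spi1 and Ikzf3 enlarges their differences by the choice itself, so those values are not a further test. The part of the library that stood apart in these results was not tested beyond the values given.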

How the results depend on the processing

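Of the 59 calls of the 10 factors over 19 comparisons, 21 were lost under no alternative and 32 were lost on leaving out at least 1 library. The fit to the compared groups only lost 25, no filter 13, a pseudocount of 0.1 lost 3, leaving out both replicate 1 of naive and replicate 1 of anti-CD40 and IL-4 at 24 h lost 2 of 31, and removal of mitochondrial, ribosomal protein and pseudogene transcripts and no variance trend lost 1 each. The filter at 5 TPM, median-of-ratios rescaling and the replicate block lost none, and no call reversed. The replicate block changed no other call than Spi1 in the change of the IL-21 effect with time, where it gave 1 factor called against 0.

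Counts of factors called that moved by over 1.5 times were as follows. With rescaling they were 6 for anti-CD40 against naive at 24 h (main 3), 4 for IL-21 beside IL-4 at 6 h (main 2), 1 for IL-4 beside IL-21 at 6 h (main 0), 5 from 6 h to 24 h with IL-4 (main 2), 3 in the interaction at 24 h (main 1) and 1 in the change of the IL-21 effect with anti-CD40 alone (main 0). With mitochondrial, ribosomal protein and pseudogene transcripts left out they were 4 for IL-21 beside IL-4 and 1 for IL-4 beside IL-21 at 6 h, 3 in the interaction at 24 h and 1 in that change with time. In the compared groups only they were 1 for IL-4 at 6 h, 1 for IL-4 at 24 h, 4 and 2 for IL-21 with IL-4 at 6 h and 24 h, 1 for IL-4 with IL-21 at 6 h, 0 from 6 h to 24 h with IL-4 and 9 with both cytokines, 1 and 0 in the interaction at 6 h and 24 h, and 1, 1 and 0 in the changes over time of the IL-21 effect (without IL-4, then with it) and of the IL-4 effect. Over all tested genes the fit to the compared groups only called 913 for IL-4 and 342 for IL-21 with IL-4 at 24 h. It called 522 from 6 h to 24 h with IL-4 and 4827 with both cytokines. In the interaction at 24 h it called 289. With no filter the counts of factors were 3 from 6 h to 24 h with both cytokines, 0 in the interaction at 24 h, and 1 and 0 in the changes over time of the IL-21 effect beside IL-4 and of the IL-4 effect. Without both replicates 1 they were 6 from 6 h to 24 h with IL-4, 6 in the interaction at 24 h, and 8 and 9 in those same 2 changes. In the same order, 5089, 3015, 3909 and 4399 of the 12147 tested genes were called there. That alternative also gave 3 (main 4) and 4 (main 3) for anti-CD40 against naive at 6 h and 24 h. The cause of these shifts was not tested.

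Leaving out 1 library gave counts of 2 to 4 and 1 to 3 for anti-CD40 against naive at 6 h and 24 h, 4 to 9 for IL-4 at 24 h, 2 to 3 for IL-21 at 6 h, and 3 to 9 for IL-21 with IL-4 at 24 h. From 6 h to 24 h they were 0 to 6 with IL-4, 4 to 10 with IL-21 and 2 to 5 with both. They were 0 to 5 in the interaction at 24 h, and 0 to 1, 1 to 8 and 0 to 9 in the 3 changes with time.

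Rescaling by median of ratios moved the share of called genes that were higher by over 10 percentage points in 13 comparisons: from 55.5% to 44.8% and 70.7% to 44.9% for anti-CD40 against naive at 6 h and 24 h, 26.4% to 52.4% for IL-4 at 24 h, 73.8% to 57.0% for IL-21 at 24 h, 90.1% to 49.6% for IL-21 with IL-4 and 32.9% to 45.1% for IL-4 with IL-21 at 24 h. From 6 h to 24 h it went from 66.3% to 52.6%, 34.6% to 52.8%, 73.8% to 53.8% and 68.7% to 55.2% with none, IL-4, IL-21 and both. It went from 57.3% to 44.4% in the interaction at 24 h, 86.4% to 61.8% in the change of the IL-21 effect with time beside IL-4 and 29.4% to 54.5% in that of the IL-4 effect. Read depth is unknown, so no counting error can be given, and low genes such as Ets1 are the least certain.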
